A study of Mus musculus with 63 samples.

Results

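Serpins are a superfamily of proteins, most of which inhibit serine proteases, and they are named by clade, the letter that follows Serpin. They were described here across 13 groups of mouse skin keratinocytes. Every probe whose only gene symbol in the array's annotation began with Serpin was taken, which gave 49 probes for 44 genes among 28049 probes (14541 genes with a probe of 1 symbol) in all. Clade A held 15 genes and 17 probes, and clade B held 21 genes and 23 probes. Clade F held 2 genes (3 probes), clade I 2 genes, and clades C, D, G and H 1 gene each. A further 1 probe, annotated with several symbols, was not counted. Serpinb13 and Serpinb3b have no member probe and were not analysed here. All 49 probes were tested in every comparison, and 37 of them had a value on every array.

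As background, an inhibitory serpin offers a reactive loop as bait, and a protease that cuts the loop is trapped as the serpin refolds. Clade A and clades C, D, F and G hold mostly secreted proteins, among them the plasma inhibitors alpha-1-antitrypsin (the Serpina1 genes), antithrombin (Serpinc1) and C1 inhibitor (Serping1). Clade B serpins lack a classical secretion signal and act largely inside cells. Several are abundant in stratified epithelia such as the epidermis: maspin (Serpinb5), plasminogen activator inhibitor type 2 (Serpinb2), and the Serpinb3 genes, the mouse relatives of the human squamous cell carcinoma antigens. Some serpins inhibit no protease. Serpinh1 (Hsp47) is a collagen chaperone, and Serpina6 carries corticosteroids in plasma.

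The cells were primary keratinocytes from newborn CD-1 mouse skin, wild type (WT) or with a total knockout (KO) of Egfr, which encodes the epidermal growth factor receptor. They were left as mock controls or transduced with the oncogene v-rasHa, carried by supernatant of the Psi-2 producer line. A culture time of 4 days is given for the ras groups and the inhibitor groups. None is given for mock cells without inhibitor. AG1478, erlotinib (Tarceva) and PD153035, which block the receptor's tyrosine kinase, were each used at 1 µM for 2 h. WT cells were measured as mock and as ras cells, each without and with every inhibitor; KO cells were measured as mock cells without inhibitor and as ras cells without and with every inhibitor. Each group held 5 samples, except WT mock (4), KO mock (3), KO ras with erlotinib (4) and KO ras with AG1478 (6), giving 62 samples on 63 two-colour arrays. The design text calls the replicates biological, but no label ties a sample to an animal or culture, so the p-values measure the spread between these samples. In RNA from whole cultures, fewer cells of a type and less RNA per cell cannot be told apart.

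Each value is a log ratio of the sample to a common reference, RNA of several mouse cell lines in 1 pool. It is read as log2, although the files do not state the base, so folds depend on that reading. A value of 0 means the level of the pool, not absence, and values of different genes are not compared as amounts. A difference was called where limma's adjusted p was under 0.05 (all 13 groups in 1 fit, Benjamini-Hochberg over all probes tested); errors of differences are standard errors. A gene with several probes is described by the probe with most values unless another is named, and the differences listed for a comparison are over genes taken this way. The mean of 15 keratinocyte markers lay above the reference in every sample (1.73 to 4.78), as did that of 8 melanocyte markers (0.72 to 3.93). Markers of fibroblasts, endothelium, leukocytes and hepatocytes averaged below it in every sample. The 2 Egfr probes overlapped between genotypes and were called in no comparison: the first ran from 0.43 to 3.60 (median 2.27) over 39 WT samples and from 0.22 to 2.77 (median 2.03) over 23 KO samples. Whether either probe lies in the deleted part is not known, so Egfr checks no label here.

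On 2 arrays, KO ras with AG1478 replicates 3 and 4, the ratio ran against the dye order of the label. Their direction was taken from their correlation with the other arrays, and the Serpin calls of that group are also given without them; its other values are not. Without them 291 probes of the array, in place of 615, were called between KO and WT ras cells with AG1478. The array numbers fall into 8 blocks of near-consecutive numbers, called runs here. WT mock groups and WT ras lay in runs 1 and 2, KO mock in run 4, and KO ras in runs 3, 5 and 6. WT and KO ras with erlotinib lay in runs 5 and 6, and KO ras with AG1478 and both ras groups with PD153035 in run 8. WT ras with AG1478 was divided between run 7 (replicates 1, 2 and 5) and run 8 (replicates 3 and 4). For an inhibitor against untreated WT ras cells, run and treatment therefore cannot be told apart. Groups also share no run in KO against WT cells without inhibitor, ras in KO cells, and AG1478 or PD153035 in KO ras cells.

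Clade B genes tended to lie above the reference and clade A genes below it. Of 21 clade B genes, 12 (57.1%) had means above the reference in all 13 groups and 1 (4.76%) had means below it in all. Of 15 clade A genes, 3 (20%) lay above in all groups and 7 (46.7%) below in all. Over 27991 probes with a mean in every group, 19.5% lay above throughout and 24% below throughout. These shares describe the genes against this reference, and members within a gene cluster share sequence.

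The highest clade B values were those of Serpinb2, an inhibitor of urokinase, whose group means ran from 2.22 in KO mock to 6.83 in WT ras with AG1478, and of Serpinb5, from 2.51 in WT ras with AG1478 to 6.21 in WT mock. Serpinb6c ran from 2.75 in WT ras to 5.10 in KO ras with erlotinib. Serpinb11 had a wide span, from 0.34 in KO mock to 6.48 in WT ras with erlotinib. Serpinb3a ran from 0.95 in WT ras with AG1478 to 4.39 in KO ras with AG1478, Serpinb3c from 0.32 in WT ras with AG1478 to 2.95 in KO ras with AG1478 and Serpinb3d from 0.17 in WT mock with AG1478 to 1.67 in KO ras with AG1478. These genes, with Serpinb7, Serpinb9b, Serpinb9d, Serpinb9f and Serpinb12, were the 12 above the reference throughout. Serpinb12, an epithelial inhibitor of trypsin-like proteases, ran from 0.37 in WT mock to 1.27 in KO ras with erlotinib. Serpinb1a, an inhibitor of neutrophil elastase, was the clade B gene below the reference in all groups, from −1.25 in WT ras with AG1478 to −0.21 in KO ras. Serpinb9, the granzyme B inhibitor, ran from −1.48 in KO ras with PD153035 to 0.062 in WT ras with AG1478, and Serpinb6a from −0.97 in KO ras to 0.60 in WT ras with PD153035.

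In clade A, Serpina3f stood highest, from 0.98 in WT ras with AG1478 to 4.54 in WT mock, followed by Serpina3b, from 0.55 in KO ras with PD153035 to 1.81 in WT mock with erlotinib. Serpina3n, a secreted antichymotrypsin-like inhibitor, lay on both sides of the reference, from −0.70 in KO ras to 1.41 in WT ras with erlotinib. The alpha-1-antitrypsin genes were among the lowest of the clade, with Serpina1a running from −3.84 in WT mock to −1.70 in KO mock. Serpina1b, Serpina1d, Serpina1e and Serpina1f also lay below the reference in every group. Some of these are near-identical copies, so signal on one probe may come from another. Serpina3a ran from −3.03 in WT mock to −1.08 in WT ras with AG1478, and Serpina5, protein C inhibitor, from −3.12 in WT mock with PD153035 to −0.80 in WT ras with AG1478.

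Among the small clades, Serping1 ran from −4.16 in WT ras to −2.18 in KO ras with erlotinib, and Serpinc1 also lay below the reference in all groups, from −1.09 in KO ras to −0.35 in WT ras with PD153035. Serpinh1 ran from −0.067 in WT ras to 1.22 in KO mock. Serpinf1, pigment epithelium-derived factor, ran from −0.72 in KO ras to 0.72 in WT ras with PD153035. Serpinf2, alpha-2-antiplasmin, ran from −0.86 in WT ras to 0.50 in WT ras with erlotinib on its first probe. The heatmap of group means sets the clades beside each other.

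**Figure D1:**
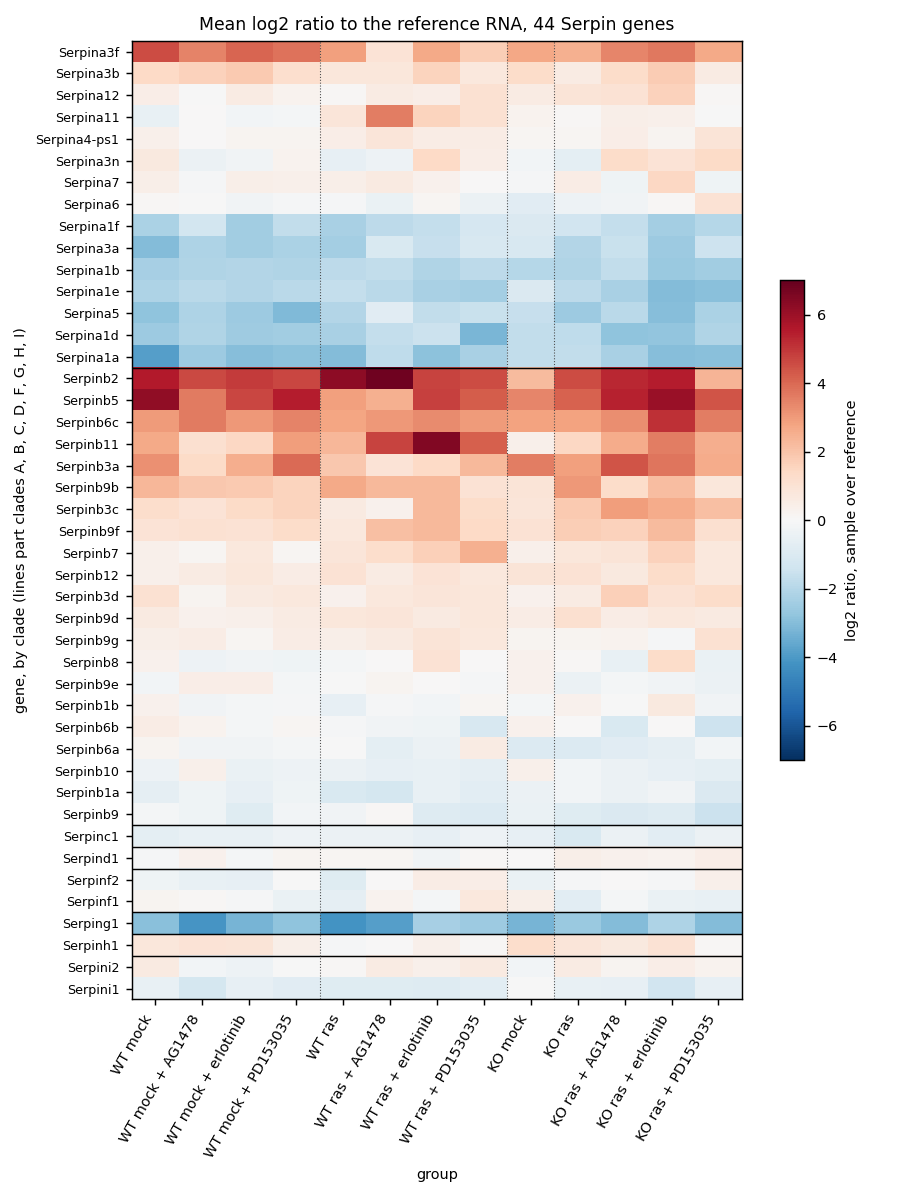
Mean log2 ratio to the reference RNA of 44 Serpin genes (rows, by clade) in 13 groups (columns, 3 to 6 samples each); red is above and blue below the reference. Serpinb2 and Serpinb5 are red in every group, and Serping1 and the Serpina1 genes are blue in every group.

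The effect of v-rasHa was read from ras against mock cells of the same genotype. No Serpin probe was called in WT cells, where 0.183% of all probes were, or in KO cells, where 0.539% were (limma). At an unadjusted p under 0.05 stood 7 of 49 Serpin probes in WT and 5 in KO cells, beside 6.68% and 6.81% of all probes. Serpinb5, maspin, is a serpin studied as a suppressor of tumour invasion. It read 5.90, 6.72, 7.08 and 5.15 in WT mock and 3.38, 2.59, 0.62, 3.76 and 4.03 in WT ras. The groups did not overlap, yet the difference of −3.32 ± 1.17 was not called (adjusted p = 0.539).

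KO mock and KO ras share no run, so run and ras cannot be told apart in KO cells. With run as a random block, 10 probes of the array, in place of 151, were called there. In KO cells Serpinb5 was scattered. It read 7.06, 0.15 and 3.09 in KO mock and 4.29, 0.40, 2.70, 6.21 and 6.90 in KO ras, so the groups overlapped. The array of KO mock replicate 2, which gave 0.15, had the smallest SD of values of all arrays (0.75). The part of this in the scatter was not tested. The ras effect in KO minus that in WT cells was 4.04 ± 1.74 for Serpinb5 (adjusted p = 0.785), and no Serpin probe was called in that test (0.0108% of all probes; 6 of 49 and 5.9% at an unadjusted p under 0.05). Other ras differences in WT cells were Serpina11 (1.38), Serpina1a (0.84) and Serpina5 (0.76) upward, and Serpina3f (−1.68) and Serpinb3a (−1.29) downward, none of them called; the second Serpinb10 probe, outside this list, had −2.48. In KO cells they were Serpinb2 (2.38), Serpinb9b (1.98) and Serpinb11 (1.06) upward and Serpinf1 (−1.08), Serpina1e (−0.89) and Serpina3a (−0.88) downward, again uncalled. Between the genotypes the ras effect differed, without a call, for Serping1 (1.85), Serpinb9b (1.71), Serpina5 (−1.64), Serpina3a (−1.57) and Serpina11 (−1.44), and for the second Serpinb10 probe (3.16).

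Next, genotypes were compared without inhibitor. KO and WT groups share no run here, so run and genotype cannot be told apart. With run as a random block, 8 probes of the array, in place of 310, were called between mock cells. Between ras cells 1 probe was called, in place of 537. No Serpin probe was called in mock cells (1.11% of all probes) or in ras cells (1.92%); 8 and 6 of 49 had an unadjusted p under 0.05, beside 17.7% and 16.8% of all probes. Serpinb2 read 5.39, 6.44, 6.31 and 4.16 in WT mock and 2.13, 0.71 and 3.81 in KO mock. All KO values lay below all WT values, and the difference was −3.38 ± 1.27 (adjusted p = 0.149). The array of KO mock replicate 2, the second KO value listed, had the smallest spread of values (SD) of all arrays. Its SD was 0.75, against 1.33 and 1.43 in replicates 1 and 3. The part of this spread in the KO mock values was not tested. The keratins Krt14, Krt15 and Krt10 were called higher in KO mock cells (3.10, 3.13 and 2.37). The mean of 10 fibroblast markers ran over −1.02 to −0.62 in KO and −1.96 to −1.56 in WT mock cells, without overlap, and 9 of 10 were positive. The median differences of the 15 keratinocyte, 8 melanocyte, 8 hepatocyte and 7 endothelial markers were 1.18, 0.96, 0.95 and 1.25, beside 0.053 over all probes. The part of these markers in the serpin values was not tested. Other mock differences were Serpina1a (2.13), Serpina3a (1.87) and Serpina1e (1.19) upward, and Serpinb5 (−2.81) and Serpinb11 (−2.29) downward. In ras cells they were Serping1 (1.56), Serpina1a (1.31) and Serpinb5 (1.23) upward and Serpinb2 (−1.69), Serpinb6a (−0.94) and Serpinb11 (−0.89) downward.

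Serpinb10 has no settled level here. Its second probe differed by −3.02 ± 0.96 between KO and WT mock cells (adjusted p = 0.0878), without overlap, but its 2 probes had opposite signs in 12 of 17 comparisons. It was called in none, and its values are given beside the lists of the other genes where they lie beyond them. In ras cells Serpinh1 had an adjusted p of 0.0574. Serpinh1 read −0.31, 0.76, −0.083, −0.25 and −0.45 in WT ras and 1.06, 1.53, 1.05, 0.45 and 0.057 in KO ras. WT replicate 2 overlapped with KO replicates 4 and 5, and the difference was 0.89 ± 0.26.

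The inhibitors were then set against untreated cells of the same kind, which asks what follows a block of the receptor's kinase. In WT mock cells no Serpin probe was called, nor was any probe of the array (0% called with each of AG1478, erlotinib and PD153035, limma). At an unadjusted p under 0.05 stood 4, 1 and 1 of 49 Serpin probes, beside 6.48%, 3.17% and 3.43% of all probes. With AG1478 the 3 highest and 3 lowest genes were Serpina1a (1.33), Serpina1f (0.96) and Serpina3a (0.90) upward and Serpinb5 (−2.56), Serpinb3a (−1.81) and Serpinb11 (−1.57) downward. With erlotinib they were Serpina1a (0.90), Serpina3a (0.64) and Serpinb9e (0.60), and Serpinb5 (−1.50), Serpinb11 (−1.22) and Serpini2 (−0.95). PD153035 gave Serpina1a (0.99), Serpina3a (0.86) and Serpinb3a (0.78), and Serpinb2 (−0.91), Serpinb9b (−0.82) and Serpina3f (−0.75). The second Serpinb10 probe had −1.98, −1.30 and −1.69 with AG1478, erlotinib and PD153035 (adjusted p = 0.726, 1 and 1).

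In WT ras cells AG1478 raised Serpina11, a little-studied secreted clade A serpin, which made 1 of 49 Serpin probes beside 1.94% of all probes. Its promoter is shown because Serpina11 was called in 2 comparisons and between inhibitors. The 250 bases before its start lie at chr12:103989958-103990207, minus strand (RefSeq, GRCm38.p6; the first of 2 starts in the table), with a CCAAT match in capitals.
Serpina11: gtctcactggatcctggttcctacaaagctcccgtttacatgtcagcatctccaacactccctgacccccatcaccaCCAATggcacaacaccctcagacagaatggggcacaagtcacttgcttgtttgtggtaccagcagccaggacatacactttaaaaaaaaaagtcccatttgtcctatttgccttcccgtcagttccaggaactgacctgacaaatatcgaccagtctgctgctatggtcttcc
Serpina11 read −1.11, 0.43, 1.94, 1.45 and 1.40 in WT ras and 5.17, 2.51, 1.81, 2.32 and 6.23 in WT ras with AG1478. With AG1478, 4 of 5 samples lay above all untreated ones. The difference was 2.79 ± 0.56, a fold of 6.89 (adjusted p = 0.00479), and it was called with each of the 10 samples left out in turn. The AG1478 samples of run 7 averaged 4.63 and those of run 8 2.07. With run as a random block Serpina11 differed by 2.64 (adjusted p = 0.21), and in a fit of those 2 groups alone the adjusted p was 0.279; both end the call.

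No other serpin was called with AG1478 in WT ras cells. Serpinb11 read 6.12, 7.52, 0.16, 1.94 and 7.88, with its 3 high values in run 7 and its 2 low ones in run 8, and differed by 2.40 ± 1.07 from WT ras (adjusted p = 0.235). Serpinb9f differed by 1.36 ± 0.47, Serpina3f by −1.87 ± 0.72, Serpinb3a by −0.93 ± 0.93 and Serpinb6a by −0.65 ± 0.42. The hepatocyte gene Fgb was called higher in this comparison (2.03 ± 0.49, adjusted p = 0.0236). The mean of its 8-gene list ran over −3.16 to −0.41 in WT ras and −2.01 to −0.015 with AG1478, and its part in the result was not tested.

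With erlotinib in WT ras cells, Serpinb11 and the first probe of Serpinf2 rose, 2 of 49 Serpin probes beside 3.41% of all probes. Serpinb11 lies among the epidermal clade B genes of chromosome 1, and its promoter is shown because it had the largest called difference of the serpins. The 250 bases lie at chr1:107362064-107362313, plus strand (RefSeq, GRCm38.p6), with matches to TGANTCA in capitals. This pattern is looser than the core of AP-1 sites, which has C or G in the middle, and neither match here has that.
Serpinb11: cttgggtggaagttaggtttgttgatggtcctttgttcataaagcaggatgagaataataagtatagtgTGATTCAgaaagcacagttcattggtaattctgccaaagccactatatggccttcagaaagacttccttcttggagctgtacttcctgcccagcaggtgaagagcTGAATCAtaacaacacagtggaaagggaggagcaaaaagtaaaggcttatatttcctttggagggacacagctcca
Serpinb11 read 4.46, 2.11, 0.24, 0.62 and 4.20 in WT ras and 5.80, 8.24, 7.14, 5.31 and 5.93 in WT ras with erlotinib. Every treated sample lay above every untreated one. The difference was 4.16 ± 1.07, a fold of 17.8 (adjusted p = 0.0221). The call was lost without WT ras replicate 3 or 4 or WT ras with erlotinib replicate 2 or 3, with differences of 3.64 to 3.98 and adjusted p from 0.0611 to 0.0723. With run as a random block Serpinb11 differed by 3.66 (adjusted p = 0.265), and the call was also lost with forward arrays alone, sign and dye term by label and a fit of the compared groups alone (adjusted p from 0.0506 to 0.0563). The melanocyte gene Mitf was called higher in the same comparison (0.92 ± 0.26, adjusted p = 0.0393), while the 8-gene mean ran over 0.92 to 2.55 without and 0.81 to 1.99 with erlotinib; its part was not tested.

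The first Serpinf2 probe read 0.17, −0.37, −0.89, −1.91 and −1.30 in WT ras and 0.43, 0.60, 0.74, 0.57 and 0.15 with erlotinib. Of the treated samples, 4 of 5 lay above all untreated ones. The difference was 1.36 ± 0.40 (adjusted p = 0.0456). It was lost without WT ras replicate 3, 4 or 5 or WT ras with erlotinib replicate 1, 2, 3 or 4 (adjusted p from 0.0688 to 0.158) and with run as a random block (adjusted p = 0.191). The mean of both Serpinf2 probes differed by 0.72 (adjusted p = 0.219). The Serpinf2 call was also lost with no dye term, forward arrays alone, quantile normalization, sign and dye term by label, the disputed arrays omitted, the replicate block, array weights, arrays scaled to 1 SD and a fit of the compared groups alone (adjusted p from 0.051 to 0.167). Uncalled erlotinib differences included Serpina3n (2.00 ± 0.76), Serpinb5 (1.92 ± 1.11), Serpinb9f (1.53 ± 0.47, adjusted p = 0.055, without overlap), Serpinb2 (−1.52 ± 1.05), Serpinb9 (−0.63) and Serpina1e (−0.58).

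**Figure D2:**
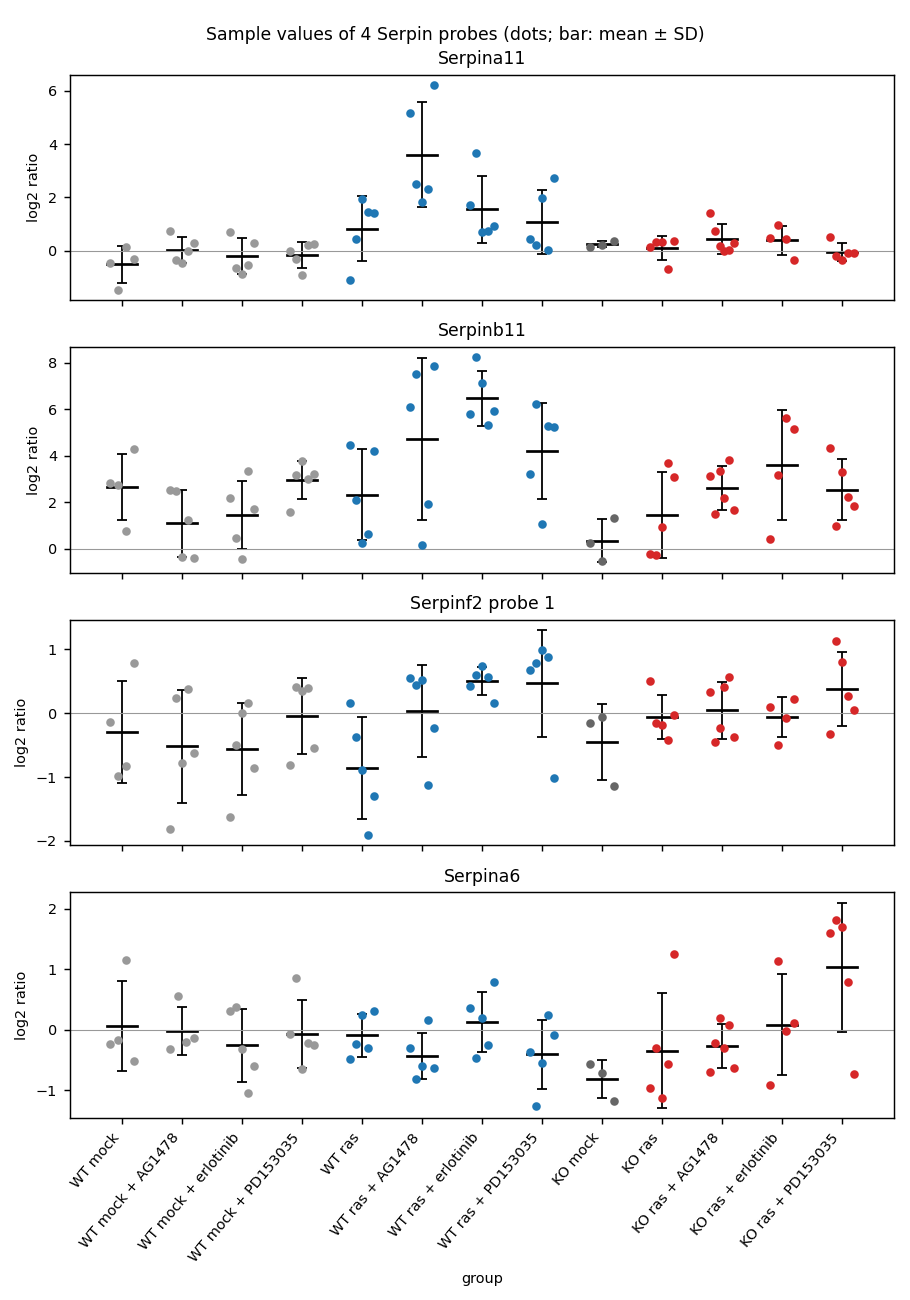
Log2 ratio to the reference of Serpina11, Serpinb11, the first Serpinf2 probe and Serpina6 in each sample (dots) of 13 groups, with bars for the mean ± SD. Serpina11 is highest in WT ras with AG1478 (mean 3.61), Serpinb11 in WT ras with erlotinib (6.48) and Serpina6 in KO ras with PD153035 (1.03).

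PD153035 in WT ras cells gave no Serpin call, beside 0.66% of all probes (limma; 5 of 49 and 12.2% at an unadjusted p under 0.05). Serpinb7, a keratinocyte serpin, read 1.97, −0.023, 0.33, −0.36 and 2.31 in WT ras and 3.65, 2.04, 2.58, 2.13 and 1.97 with PD153035. The groups overlapped through WT ras replicates 1 and 5, and the difference was 1.63 ± 0.49 (adjusted p = 0.102). Further uncalled differences were Serpinb11 (1.88 ± 1.07), Serping1 (1.64 ± 0.78), Serpinb2 (−1.72 ± 1.05), Serpinb9b (−1.62) and Serpina3f (−1.15).

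KO ras cells carry the knockout of the inhibitors' target. There no Serpin probe was called with AG1478 (0.229% of all probes) or erlotinib (0.0543%); at an unadjusted p under 0.05 stood 7 and 5 of 49, beside 14.1% and 11.9% of all probes (limma). PD153035 raised Serpina6, 1 of 49 Serpin probes beside 4.84% of all probes. Serpina6 read −0.96, −0.31, −1.12, −0.57 and 1.25 in KO ras and 1.60, 1.81, 1.70, 0.79 and −0.73 with PD153035. With PD153035, 3 of 5 samples lay above all untreated ones, while replicate 5 lay among the low untreated values. The difference was 1.38 ± 0.40 (adjusted p = 0.0336). The Serpina6 call was lost without KO ras replicate 1, 2 or 3 or KO ras with PD153035 replicate 1, 2 or 3 (adjusted p from 0.0754 to 0.116) and with run as a random block (adjusted p = 0.613); these groups share no run, so run and treatment cannot be told apart. It was also lost with forward arrays alone, sign and dye term by label and a fit of the compared groups alone (adjusted p from 0.0521 to 0.192). The keratinocyte genes Trp63 and Sfn were called lower in this comparison (−2.40 and −2.45); their part was not tested.

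The remaining KO ras values were uncalled. Serpina3n differed by 1.99 ± 0.73 with AG1478, 1.66 ± 0.81 with erlotinib and 2.05 ± 0.76 with PD153035 (adjusted p = 0.186, 0.409 and 0.0948), comparisons that share their untreated samples. With AG1478 other genes were Serpinb3a (1.52) and Serpinb5 (1.26) upward and Serpinb9b (−1.73), Serpinb6b (−1.11) and Serpina1d (−1.05) downward; Serpinb3d had an adjusted p of 0.11. With erlotinib they were Serpinb6c (2.25), Serpinb11 (2.14) and Serpinb5 (1.95), and Serpina1a (−1.27), Serpina1e (−1.20) and Serpina1f (−1.02). Untreated KO ras samples divided by run. Serpinb5 averaged 2.5 in run 3 and read 6.90 and 6.21 in runs 5 and 6. With erlotinib, Serpinb5 was lower in both shared runs, at 6.19 and 5.59. Serpinb11 without erlotinib was 0.14, 3.07 and 3.71 in runs 3, 5 and 6, and with it 3.07 and 5.15 in runs 5 and 6. The second Serpinb10 probe had 1.82 with AG1478 (adjusted p = 0.249) and 2.92 with erlotinib (adjusted p = 0.134). With PD153035, Serpinb11 differed by 1.10, Serpinb9b by −2.23 ± 0.84, Serpinb2 by −2.21 ± 1.05 and Serpinb6b by −1.46 ± 0.61.

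Under the same inhibitor, KO and WT ras cells had the most Serpin calls with AG1478. There 4 of 49 Serpin probes were called, beside 2.22% of all probes: Serpinb3a, Serpinb3c and Serpina3f were higher in KO cells and Serpina11 was lower. Serpinb3a and Serpinb3c lie near each other on chromosome 1, and their promoters are shown because they were called in the same direction. The 250 bases lie at chr1:107052304-107052553 and chr1:107278372-107278621, both minus strand (RefSeq, GRCm38.p6), with a TATAAA match in capitals.
Serpinb3a: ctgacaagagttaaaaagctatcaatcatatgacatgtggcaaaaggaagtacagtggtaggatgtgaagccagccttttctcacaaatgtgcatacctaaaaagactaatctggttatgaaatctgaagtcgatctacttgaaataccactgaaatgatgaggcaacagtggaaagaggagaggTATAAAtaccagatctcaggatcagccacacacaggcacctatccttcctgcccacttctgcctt
Serpinb3c: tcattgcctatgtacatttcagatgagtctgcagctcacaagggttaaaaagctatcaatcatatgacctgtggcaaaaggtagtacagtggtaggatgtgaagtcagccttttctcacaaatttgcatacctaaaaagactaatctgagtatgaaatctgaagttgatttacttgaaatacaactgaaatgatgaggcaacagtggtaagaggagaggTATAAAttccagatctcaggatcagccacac
In a global alignment 71.8% of columns were identical between these promoters, and 49.3% between those of Serpinb3a and Serpinb3d. Promoters are not read by the probes, and neither transcripts nor probe sequences were compared. Whether copies share signal was not tested, so how the difference divides among Serpinb3a, Serpinb3c and other Serpinb3 genes is uncertain.

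The first Serpinb3a probe read −0.22, 0.20, 0.94, 0.58 and 3.25 in WT ras with AG1478. In the 6 samples of KO ras with AG1478 it read 3.65 at the lowest, 4.23 at the median and 5.76 at the highest. Every KO sample lay above every WT sample. The difference was 3.44 ± 0.89, a fold of 10.9 (adjusted p = 0.0232). Within run 8 (6 KO and 2 WT samples) it was 3.64, without overlap. The Serpinb3a call was lost with run as a random block (3.49, adjusted p = 0.0726) or a fixed block (3.47, adjusted p = 0.0979), without the 2 disputed arrays (3.58, adjusted p = 0.0624), without WT ras with AG1478 replicate 1 or 2 or KO ras with AG1478 replicate 6 (adjusted p from 0.0545 to 0.0848), and with sign and dye term by label (adjusted p = 0.794). The second Serpinb3a probe differed by 0.54 ± 0.44 and was not called (adjusted p = 0.591).

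Serpinb3c read 0.35, 0.62, 0.46, −0.20 and 0.39 in WT ras with AG1478. In KO ras with AG1478 its lowest value was 1.77, its median 2.20 and its highest 5.62. The groups did not overlap. The difference was 2.64 ± 0.66, a fold of 6.23 (adjusted p = 0.0199), and 2.82 within run 8. Serpinb3c stayed called with run as a fixed block (2.78, adjusted p = 0.0383) and without the 2 disputed arrays (3.21, adjusted p = 0.0164), and was lost without WT ras with AG1478 replicate 4 or KO ras with AG1478 replicate 5 (adjusted p from 0.0563 to 0.0892). It was also lost with sign and dye term by label, the replicate block and a fit of the compared groups alone (adjusted p from 0.0542 to 0.367); with sign and dye term by label the difference was 1.31, adjusted p = 0.367. Serpinb3d differed by 0.93 ± 0.33 (adjusted p = 0.124).

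Serpina3f, an antichymotrypsin-like gene of clade A, read 0.26, 2.72, 0.63, −1.10 and 2.38 in WT ras with AG1478. In KO ras with AG1478 its lowest value was 2.94, its median 3.29 and its highest 4.38. The groups did not overlap, although WT replicates 2 and 5 came close to the KO values. The difference was 2.45 ± 0.69, a fold of 5.47 (adjusted p = 0.0428), and 3.67 within run 8. With run as a fixed block Serpina3f differed by 3.70 (adjusted p = 0.0178). It was lost without the 2 disputed arrays (2.16, adjusted p = 0.163) and without WT ras with AG1478 replicate 1, 3 or 4 or KO ras with AG1478 replicate 1, 2, 3, 4 or 5 (differences of 1.93 to 2.53, adjusted p from 0.0535 to 0.157). It was also lost with forward arrays alone, sign and dye term by label, the replicate block and a fit of the compared groups alone (adjusted p from 0.0526 to 0.936).

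Serpina11 went the other way. In KO ras with AG1478 it read −0.027 at the lowest, 0.22 at the median and 1.41 at the highest, all below the WT values given above. The difference was −3.19 ± 0.53, a fold of 9.15 (adjusted p = 0.000406), and it was called with each of the 11 samples left out in turn and without the 2 disputed arrays (−3.10, adjusted p = 0.00536). Within run 8 Serpina11 differed by −1.64, without overlap, and with run as a fixed block by −1.65 (adjusted p = 0.193). The AG1478 effect in KO minus that in WT ras cells, a test added after the data were seen, was −2.45 for Serpina11 (95% interval −4.00 to −0.91, adjusted p = 0.0957), 2.81 for Serpina3f (adjusted p = 0.14), 2.45 for Serpinb3a (0.32) and 1.46 for Serpinb3c (0.454). No Serpin probe was called there, beside 0.791% of all probes (3 of 49 and 16.9% at an unadjusted p under 0.05).

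**Figure D3:**
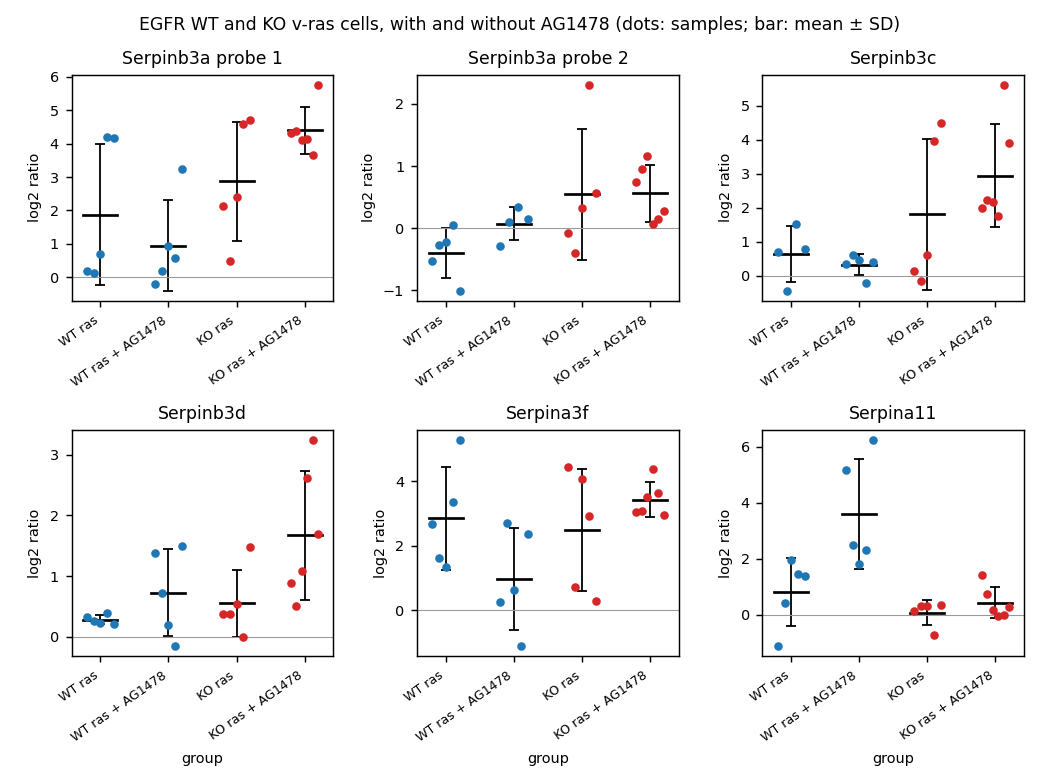
Log2 ratio to the reference of the Serpinb3 probes, Serpina3f and Serpina11 in each sample (dots) of WT and KO ras cells without and with AG1478, with bars for the mean ± SD. With AG1478 the first Serpinb3a probe reads 3.65 to 5.76 in KO and −0.22 to 3.25 in WT samples, and Serpina11 has the reverse order.

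Markers moved beside these calls. The keratinocyte gene Itga6 was called higher in KO cells with AG1478 (1.17 ± 0.33, adjusted p = 0.043), while the mean of the 15 keratinocyte markers ran over 2.30 to 4.03 in WT and 3.07 to 4.29 in KO cells. The part of these markers in the serpin differences was not tested. Uncalled in this comparison were Serpinb5 (2.86 ± 1.06, adjusted p = 0.148), Serpinb11 (−2.10 ± 1.03) and Serpinb2 (−1.55 ± 1.01). The WT values of Serpinb11 divided by run, as given above.

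With erlotinib no Serpin probe was called between KO and WT ras cells, beside 0.967% of all probes (limma; 10 of 49 and 15.6% at an unadjusted p under 0.05). Serpinb3a differed by 2.37 ± 0.98 without overlap (adjusted p = 0.218), and the second Serpinb10 probe by 2.97 ± 0.88 with overlap (adjusted p = 0.0785). Serpinb11 differed by −2.90 ± 1.14 (adjusted p = 0.19), Serpinb6c by 1.77, Serpinb5 by 1.26, Serpina5 by −1.29 and Serpina1d by −1.26. The erlotinib effect in KO minus that in WT cells was −2.02 for Serpinb11 (95% interval −5.16 to 1.12, adjusted p = 0.631), so it was not shown to differ. No Serpin was called there (limma; 0.0653% of all probes; 2 of 49 and 11.3% at an unadjusted p under 0.05).

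With PD153035, Serpina6 was higher in KO than in WT ras cells, 1 of 49 Serpin probes beside 1.38% of all probes. In WT ras with PD153035 it read −0.37, −1.26, −0.55, 0.24 and −0.095. Of the KO values given above, 4 of 5 exceeded all of these. The difference was 1.44 ± 0.40 (adjusted p = 0.0497), and all 10 samples lay in run 8. The Serpina6 call was lost without WT ras with PD153035 replicate 1, 2, 3 or 5 or KO ras with PD153035 replicate 1, 2, 3 or 4 (adjusted p from 0.0614 to 0.181) and with no dye term, forward arrays alone, sign and dye term by label, the disputed arrays omitted, the replicate block and a fit of the compared groups alone (adjusted p from 0.0521 to 0.15). The PD153035 effect on Serpina6 in KO minus that in WT cells was 1.69 (95% interval 0.56 to 2.83, adjusted p = 0.265), and no Serpin was called there (limma; 0.0933% of all probes; 6 of 49 and 10.1% at an unadjusted p under 0.05).

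Serpinb7 differed in the other direction with PD153035 without reaching a call. It read 1.27, 0.57, 0.80, 0.099 and 1.07 in KO ras with PD153035, all below the WT values given above. The difference was −1.71 ± 0.49 (adjusted p = 0.0594), and it passed with run as a fixed block (−1.71, adjusted p = 0.0142). Other uncalled values were Serpina1d (1.08), Serpina3f (0.94), Serpinb2 (−2.18 ± 1.05) and Serpinb11 (−1.67).

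The 3 inhibitors were compared with each other at the same dose and time, as 3 pairs in each of WT mock, WT ras and KO ras cells, 9 pairs in all, with p-values adjusted over all probes and the 3 pairs of a cell type. In WT mock cells no Serpin was called in any pair (0% of all probes; limma), the largest difference being −2.58 ± 0.93 for Serpinb3a between AG1478 and PD153035. In WT ras cells 1 of 49 Serpin probes was called, beside 1.67% of all probes. This was Serpina11, which read 0.45, 0.21, 1.98, 0.004 and 2.73 with PD153035 and 1.72, 3.65, 0.69, 0.74 and 0.93 with erlotinib. Of the 5 AG1478 samples, 2 lay above all PD153035 samples, and AG1478 minus PD153035 was 2.53 ± 0.56 (adjusted p = 0.0172). The call was lost without WT ras with AG1478 replicate 1 or 5 or WT ras with PD153035 replicate 1, 2 or 4 (differences of 1.90 to 2.35, adjusted p from 0.0504 to 0.0823), and within run 8 the difference was 0.99 (2 against 5 samples), with overlap. It was also lost with forward arrays alone, run as a random block, run as a fixed block and a fit of the compared groups alone (adjusted p from 0.0557 to 0.574). AG1478 minus erlotinib was 2.06 (0.94 to 3.17, adjusted p = 0.0602) and erlotinib minus PD153035 0.47 (−0.64 to 1.59, adjusted p = 0.776), with 95% intervals in parentheses.

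Serpinb11 was not called between inhibitors. AG1478 minus erlotinib in WT ras cells was −1.76 (95% interval −3.91 to 0.40), AG1478 minus PD153035 0.52 (−1.64 to 2.67) and erlotinib minus PD153035 2.27 (0.12 to 4.43, adjusted p = 0.337). These intervals are wide and do not show that the inhibitors act alike on it. Other uncalled differences in WT ras cells were Serpinb5 (−2.29) and Serpinb3c (−1.95, adjusted p = 0.174) for AG1478 minus erlotinib and Serpinb2 (2.29) for AG1478 minus PD153035.

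In KO ras cells the inhibitors differed in Serpinb8, an intracellular clade B inhibitor of furin-like proteases, 1 of 49 Serpin probes beside 4.28% of all probes. Its promoter is shown because Serpinb8 was called in 2 pairs, with a TGANTCA match in capitals; the 250 bases lie at chr1:107589756-107590005, plus strand (RefSeq, GRCm38.p6).
Serpinb8: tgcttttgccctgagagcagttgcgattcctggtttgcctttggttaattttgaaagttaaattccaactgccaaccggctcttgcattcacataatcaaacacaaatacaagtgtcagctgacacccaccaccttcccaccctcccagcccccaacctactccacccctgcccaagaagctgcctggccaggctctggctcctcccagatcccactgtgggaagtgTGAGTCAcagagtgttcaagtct
Serpinb8 read 1.40, 1.93, 1.32 and 0.56 with erlotinib and −0.89, −0.45, −0.64, −0.046 and −0.21 with PD153035. With AG1478 it read −0.74 at the lowest, −0.62 at the median and 0.15 at the highest. All 4 erlotinib samples lay above all samples of both other inhibitors. Between erlotinib and PD153035 the keratinocyte genes Trp63 and Itga6 and the melanocyte gene Sox10 were called higher too (3.10, 1.80 and 1.61). Of 15 keratinocyte markers 11 were positive (median 0.56), and of 8 melanocyte markers 7 (median 0.74). The melanocyte mean ran over 2.46 to 2.83 with erlotinib and 1.26 to 1.99 with PD153035; the part of these markers in Serpinb8 was not tested.

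AG1478 minus erlotinib was −1.82 ± 0.47 for Serpinb8 (adjusted p = 0.0274) and erlotinib minus PD153035 1.75 ± 0.49 (adjusted p = 0.0438), while AG1478 minus PD153035 was −0.065 (95% interval −0.95 to 0.82). The erlotinib samples lay in runs 5 and 6 and the others in run 8, so run and inhibitor cannot be told apart, and with run as a random block the adjusted p was 0.647 and 0.702. The first Serpinb8 call was lost without KO ras with erlotinib replicate 1, 2 or 3 (adjusted p from 0.0693 to 0.116) and the second without KO ras with erlotinib replicate 1, 2 or 3 or KO ras with PD153035 replicate 1, 2, 3 or 5 (from 0.0599 to 0.151). The first was also lost with quantile normalization, sign and dye term by label and arrays scaled to 1 SD (adjusted p from 0.0501 to 0.0735), and the second with no dye term, quantile normalization and arrays scaled to 1 SD (adjusted p from 0.05 to 0.126). Without the 2 disputed arrays they became −1.79 (adjusted p = 0.0658) and 1.75 (adjusted p = 0.0538). In WT ras cells the same pairs of Serpinb8 were −0.97 (95% interval −1.90 to −0.052) and 0.98 (0.064 to 1.91), not called. Among uncalled KO ras pairs, Serpina6 had AG1478 minus PD153035 of −1.30 (adjusted p = 0.0603) and Serpina7, thyroxine-binding globulin, AG1478 minus erlotinib of −1.68 (adjusted p = 0.07).

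The clade B genes of chromosome 1 lie in 1 cluster, in the order Serpinb5, Serpinb12, Serpinb13, Serpinb3a, Serpinb3d, Serpinb3b, Serpinb3c, Serpinb11, Serpinb7, Serpinb2, Serpinb10 and Serpinb8 (RefSeq, GRCm38.p6). Of these 12 genes 10 were measured, and in the main fit neighbours did not share 1 direction. With AG1478 in WT ras cells Serpinb11 differed by 2.40 and Serpinb3a by −0.93. Between KO and WT ras cells with AG1478, Serpinb3a (3.44) and Serpinb3c (2.64) were called higher, while Serpinb11 beside them had −2.10. Both Serpinb11 values depend on run, since in WT ras with AG1478 it averaged 7.2 in run 7 and 1.0 in run 8. In KO ras with AG1478, all in run 8, it averaged 2.6, above the WT mean of that run. The plot of the cluster in chromosome order shows these intervals.

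**Figure D4:**
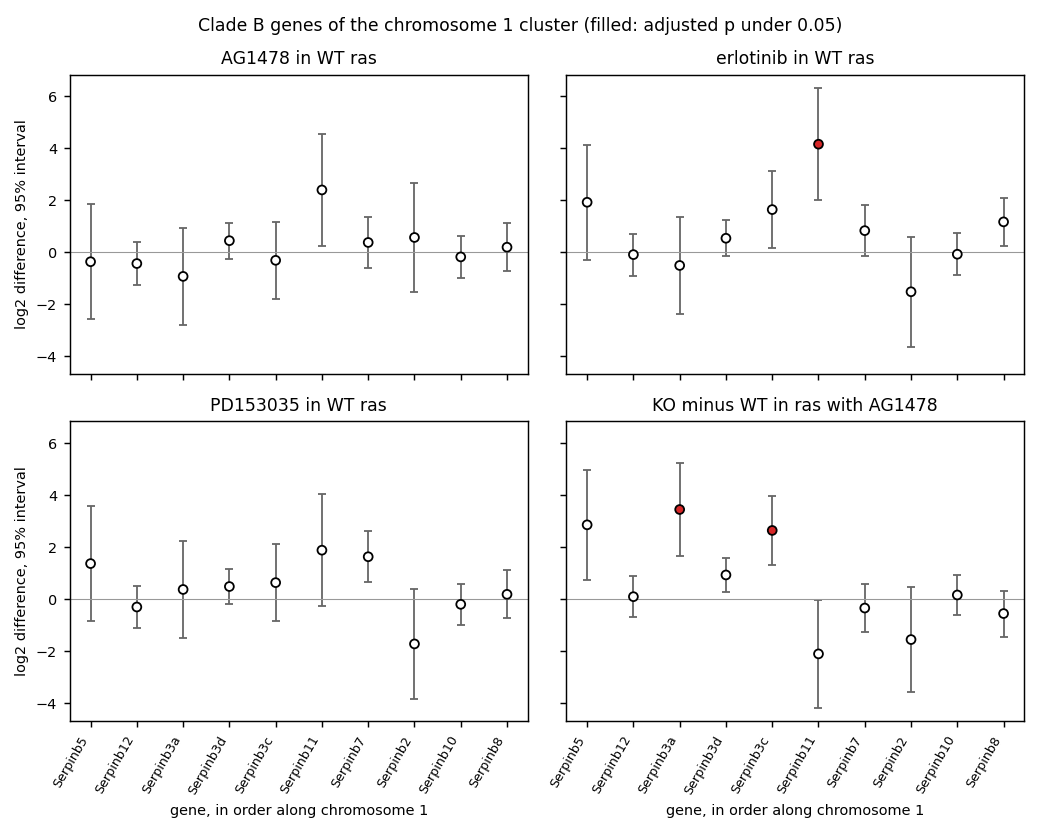
Log2 difference with its 95% interval for 10 clade B genes in chromosome order, for AG1478, erlotinib and PD153035 in WT ras cells and for KO minus WT ras cells with AG1478; filled points are called. Serpinb11 is called with erlotinib (4.16), and Serpinb3a and Serpinb3c between genotypes with AG1478 (3.44 and 2.64).

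The promoters were searched on both strands for short motifs in the 250 bases before the start. These were TGANTCA (a loose form of the AP-1 core), TATAAA (the TATA box), CCAAT (NF-Y) and TTNNGCAA (C/EBP). GGAAGT (ETS), CACNTG (the E-box), TGACGTCA (CREB) and an NF-kB consensus were searched too. A TGANTCA match need not have the C or G that the AP-1 core has in the middle. A Serpin gene was counted if any of its starts had a match, whereas the share over all is of single promoters, so the units differ. TGANTCA was in 10 of 40 Serpin genes and in 7 of the 11 cluster genes with a promoter, against 6.75% of all 32851 promoters. The 7 were Serpinb5, Serpinb12, Serpinb11, Serpinb7, Serpinb2, Serpinb10 and Serpinb8. TATAAA was in 11 of 40 and in 7 of 11 (12.4% of all), including Serpinb3a, Serpinb3d, Serpinb3b and Serpinb3c. CCAAT was in 15 of 40 (33.8%), TTNNGCAA in 12 (9.56%), GGAAGT in 4 (19.7%) and CACNTG in 18 (39.5%). The NF-kB consensus (0.14% of all) and TGACGTCA (1.55%) were in none of the 40. These are matches of letters, and copies within the cluster share ancestry.

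By clade, the median difference of the 17 clade A probes and the 23 clade B probes lay in several comparisons on opposite sides of that of all probes. For ras in WT cells the medians were 0.12 in clade A, −0.29 in clade B and 0.036 over all probes, with 17 of 23 clade B probes negative. With erlotinib in KO ras cells they were −0.42, 0.46 and −0.003. A wide gap was that of erlotinib minus PD153035 in KO ras cells, −0.39 in clade A and 0.92 in clade B (−0.019 over all probes), where 20 of 23 clade B and 5 of 17 clade A probes were positive. The keratinocyte and melanocyte markers named beside Serpinb8 were higher in the same pair (medians 0.56 and 0.74), and their part was not tested. With AG1478 in WT ras cells the medians of both clades lay close, 0.22 and 0.20. With PD153035 in WT ras cells they were −0.016 and 0.35. These medians are descriptions, since members of a clade share sequence and arrays. The spread of values over an array also differed between groups. The median array SD was 1.49 in WT mock and 1.26 in WT ras. It was 1.19 in KO ras, 1.53 in KO ras with erlotinib and 1.31 in KO ras with PD153035. The part of this spread in the clade medians was not tested.

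**Figure D5:**
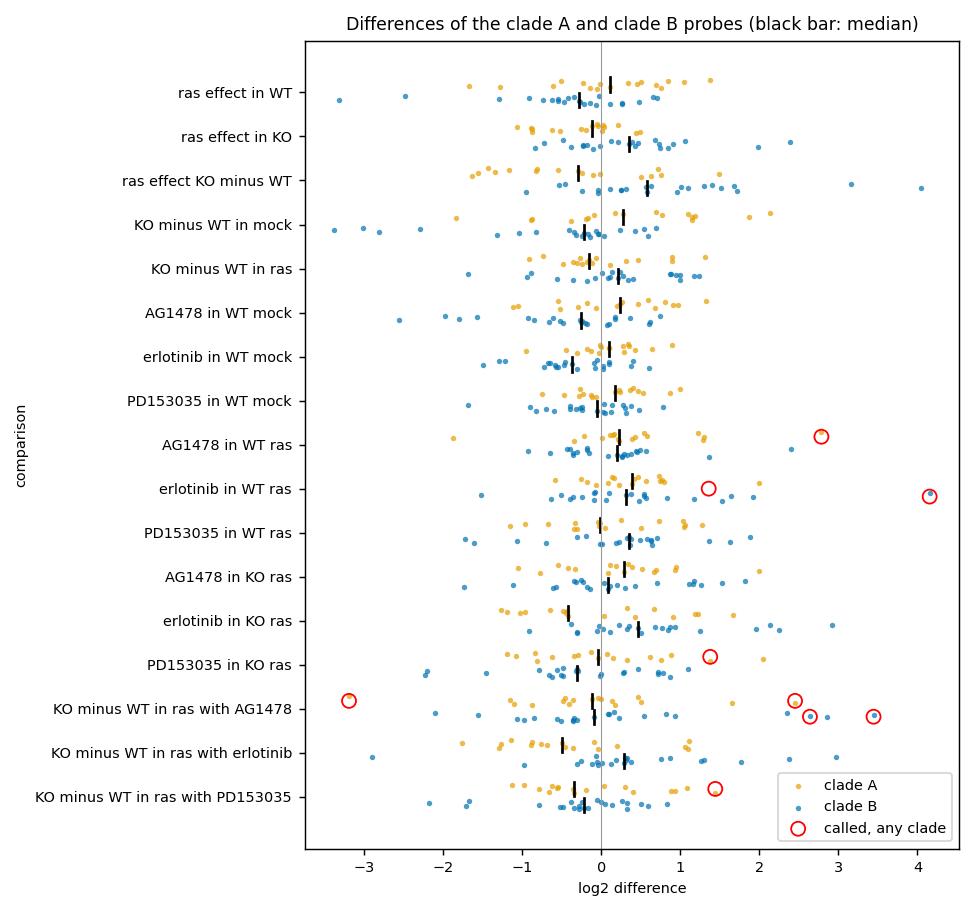
Log2 difference of each clade A and clade B probe in 17 comparisons, with a black bar at the median and red circles around called probes of any clade. For ras in WT cells clade B lies lower (median −0.29) than clade A (0.12), and with erlotinib in KO ras cells higher (0.46 against −0.42).

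Proteases, receptors and other inhibitors that meet serpins in the epidermis and in plasma were followed, with the collagen genes Col1a1 and Col3a1. Both collagen genes are also fibroblast markers here. This list had 62 genes, 52 of them measured, and was chosen with earlier results of these data known. In KO against WT ras cells with AG1478, 5 of 52 were called lower and 0 higher, with a median of −0.36 beside −0.032 over all probes, of which 2.22% were called. They were the kallikrein Klk6 (−3.79 ± 0.81, adjusted p = 0.00511), the serine proteases Prss8 (−1.71), Prss22 (−2.98) and Prss27 (−2.48), and the urokinase receptor Plaur (−1.75). With PD153035 in KO ras cells, 3 of 52 fell, beside 4.84% of all probes called in either direction, namely Klk8 (−3.14), Klk10 (−2.31) and the protease inhibitor Spint1 (−1.21). In WT ras cells AG1478 raised 1 of 51, Klk14 (2.11), beside 1.94% of all probes, and erlotinib 2, Prss8 (1.29) and Lrp1 (1.13), the receptor that clears serpin complexes, beside 3.41%. These shares of the list with PD153035 in KO and with AG1478 and erlotinib in WT ras cells are near the background. The coagulation factor gene F10 was higher with ras in KO cells (1.83, beside 0.539% of all probes called). The lysosomal protease gene Ctsl was lower in KO than in WT ras cells with PD153035 (−2.71, beside 1.38% called). Except between KO and WT ras cells with an inhibitor, the groups compared share no run, so run and treatment cannot be told apart there. With run as a random block, 10 probes of the array were called with ras in KO cells, in place of 151. They numbered 8 and 30 with AG1478 and erlotinib in WT ras cells, in place of 539 and 950. With PD153035 in KO ras cells 0 were called, in place of 1353. The partner calls are not given without the disputed arrays.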

How the data were processed

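Samples were 63 two-colour oligonucleotide arrays of keratinocyte RNA against a mouse reference RNA, per the labels. The authors deposited 1 log2 ratio per probe and array (the base is read as log2 and is not stated), with array medians from −0.072 to 0.067; the normalization and image steps are not given in the sources used here. Ratios were turned to sample over reference, and 2 WT mock arrays labelled as the same repeat in opposite dye order were averaged. Their correlation was 0.834, below the 0.903 of another WT mock pair, so whether they are 1 sample is not known. Kept apart, they gave 673 probes of the array called between KO and WT mock cells, in place of 310. Group means and a dye term were fitted per probe by ordinary least squares with limma's variance moderation (R 4.3.3, limma 3.58.1, statmod 1.5.0). Tested were probes with values on at least 60% of the arrays of each group compared. Correlation between arrays entered only the alternative with run as a random block. Benjamini-Hochberg adjustment ran over all probes tested, at 0.05, and for inhibitor pairs over the 3 pairs as well. The number of arrays limits the precision. The computation was tested on simulated data. Alternatives changed the normalization, filter, dye term, array direction, weights, blocks and samples used.

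Members, marker lists and partner genes were chosen with earlier results of these data known. Named were serpins called in any comparison, the 3 highest and 3 lowest differences per comparison, and a fixed set of epidermal and plasma serpins with their levels; Serpinb7, Serpinb9f, Serpinf1, Serpinb3d and a few pair values were named after their values were seen. A gene with several probes was represented by the one with most values. Promoters were matched by symbol in RefSeq (GRCm38.p6): all 44 genes were found and 40 had a sequence; figures used matplotlib 3.10.9.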

Additional observations from a re-analysis of the deposited data

Results flagged for a closer look

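In KO ras with AG1478, replicate 6 stood apart from the other 5 samples in 2 genes. For the first Serpinb3a probe it read 5.76, against 3.65 to 4.37 in the others. For Serpinb8 it read 0.15, against −0.74 to −0.54. Of 20 sets of a gene and a group that were looked at, 2 had such a sample, and chance gives about 1 in 20. Klk6, a kallikrein of the partner list, had an AG1478 effect that differed between genotypes: KO minus WT was −4.50 ± 1.17 on the log2 scale (limma, adjusted p = 0.0453). In neither genotype do ras cells with and without AG1478 share a run, so run and treatment cannot be told apart. The Klk6 value is not given without the disputed arrays.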

How the results depend on the processing

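Of the 12 calls, that of Serpina11 with AG1478 in WT ras cells and that between genotypes with AG1478 held with every single sample left out. Counts of Serpin calls moved by over 1.5 times under these settings, each given from the reported to the other count. Array weights changed the count from 0 to 2 in ras in KO, KO against WT ras and PD153035 in WT ras, from 0 to 5 in KO against WT mock, AG1478 in KO ras and KO against WT ras with erlotinib, from 1 to 2 in AG1478 in WT ras, from 0 to 17 in erlotinib in KO ras, from 1 to 16 in PD153035 in KO ras and between inhibitors in KO ras, from 1 to 5 in KO against WT ras with PD153035 and between inhibitors in WT ras. Forward arrays alone changed the count from 0 to 1 in KO against WT mock and erlotinib in KO ras, from 1 to 2 in AG1478 in WT ras and between inhibitors in KO ras, from 2 to 0 in erlotinib in WT ras, from 1 to 3 in PD153035 in KO ras, from 1 to 0 in KO against WT ras with PD153035 and between inhibitors in WT ras. Quantile normalization changed the count from 0 to 1 in KO against WT mock, PD153035 in WT ras and AG1478 in KO ras, from 2 to 1 in erlotinib in WT ras, from 1 to 3 in PD153035 in KO ras, from 1 to 2 in KO against WT ras with PD153035 and between inhibitors in WT ras. Arrays scaled to 1 SD (added after seeing the data) changed the count from 0 to 1 in PD153035 in WT ras, from 1 to 3 in PD153035 in KO ras, from 1 to 2 in KO against WT ras with PD153035, between inhibitors in WT ras and between inhibitors in KO ras. Probes with a value on every array changed the count from 0 to 1 in KO against WT ras, from 1 to 0 in PD153035 in KO ras and KO against WT ras with PD153035. No dye term changed the count from 2 to 1 in erlotinib in WT ras, from 1 to 0 in KO against WT ras with PD153035. Sign and dye term by label changed the count from 2 to 0 in erlotinib in WT ras, from 0 to 3 in AG1478 in KO ras, from 1 to 0 in PD153035 in KO ras and KO against WT ras with PD153035, from 1 to 7 in between inhibitors in KO ras. With sign and dye term by label, Serpina3f in KO against WT ras with AG1478 turned to −0.19 (adjusted p = 0.936), as 2 arrays of that group change sign there. Serpinb3a (0.67, adjusted p = 0.794) and Serpinb3c (1.31, adjusted p = 0.367) lost their calls there too, and Serpina11 (−3.24, adjusted p = 0.000332) kept its call. Both disputed arrays left out changed the count from 2 to 1 in erlotinib in WT ras, from 4 to 2 in KO against WT ras with AG1478, from 1 to 0 in KO against WT ras with PD153035 and between inhibitors in KO ras. Run as a random block changed the count from 1 to 0 in AG1478 in WT ras, PD153035 in KO ras, between inhibitors in WT ras and between inhibitors in KO ras, from 2 to 0 in erlotinib in WT ras, from 0 to 1 in KO against WT ras with erlotinib, from 1 to 2 in KO against WT ras with PD153035. Run as a fixed block changed the count from 0 to 1 in KO against WT ras with erlotinib, from 1 to 3 in KO against WT ras with PD153035, from 1 to 0 in between inhibitors in WT ras and between inhibitors in KO ras. The replicate number as a block (replicate block) changed the count from 2 to 1 in erlotinib in WT ras, from 4 to 2 in KO against WT ras with AG1478, from 1 to 0 in KO against WT ras with PD153035. Probes averaged by gene changed the count from 2 to 1 in erlotinib in WT ras. A fit of the compared groups alone changed the count from 1 to 0 in AG1478 in WT ras, PD153035 in KO ras and between inhibitors in WT ras, from 2 to 0 in erlotinib in WT ras, from 4 to 2 in KO against WT ras with AG1478, from 1 to 2 in KO against WT ras with PD153035 and between inhibitors in KO ras. Leaving out 1 sample at a time gave 0 to 1 calls in KO against WT mock, erlotinib in KO ras, KO against WT ras with PD153035 and between inhibitors in WT ras, 0 to 2 calls in KO against WT ras, PD153035 in WT ras and AG1478 in KO ras, 1 to 3 calls in AG1478 in WT ras, 0 to 3 calls in erlotinib in WT ras and between inhibitors in KO ras, 0 to 4 calls in PD153035 in KO ras, 2 to 5 calls in KO against WT ras with AG1478. Same-numbered samples did not pair: in 0 of 16 comparisons did every pair correlate above 0.1, so the replicate block is only an alternative. Run as a fixed block could not be fitted where groups lie in unconnected runs. No filter and the repeat 1 arrays kept apart moved no count by over 1.5 times. The 95 uncalled values named were called in the same direction under 46 of 2299 alternatives and had the opposite sign under 10. Apart from the settings that construct fewer samples or fewer probes, the cause of these changes was not tested. Signal over background was not analysed here, so low spots could not be told from measured ones.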
